A study of Danio rerio with 12 samples.

Results

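The period genes per1a, per1b, per2 and per3 encode the PER proteins, the repressors at the centre of the circadian clock. They were examined in the eyes of akr7a3-/- zebrafish beside akr7a3+/+ eyes. The members were taken by symbol from the deposited expression table, and all 4 were among its 25432 genes. In the vertebrate clock, heterodimers of CLOCK (or NPAS2) and BMAL bind E-box elements and switch on per and cry genes. PER and CRY proteins then enter the nucleus and silence that same complex, and casein kinase 1 and ubiquitin ligases remove them so that a new cycle can start. Zebrafish tissues, the eye included, carry their own light-sensitive clocks, and per2 is known in this species as a gene that light itself induces.

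RNA was sequenced from 12 adult eyes, 6 of genotype akr7a3+/+ (eyes 1, 2, 3, 4, 6 and 7) and 6 of genotype akr7a3-/- (eyes 1, 4, 5, 7, 8 and 9). The mutant allele, made by CRISPR/Cas9, is an insertion in the first exon of the aldo-keto reductase gene akr7a3 that introduces an early stop. akr7a3+/+ fish are called wild types and akr7a3-/- fish mutants. The line was raised in the Tg(fli1:EGFP) background, in which a fluorescent reporter marks endothelial cells, so the comparison rests on a single mutant allele in a reporter strain. Both genotypes were kept on a light and dark cycle and received no treatment that the labels name. Exact age, sex, kinship and the hour of collection of the fish are not given in the sources used here. Time of day and genotype therefore cannot be told apart.

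The authors deposited FPKM, the fragments on a gene scaled by gene length and library size, which lets levels be set side by side between genes and eyes. FPKM does not correct for differences in library composition. Median-of-ratios scaling factors of the eyes ran from 0.975 (akr7a3-/- eye 5) to 1.075 (akr7a3-/- eye 1). The library totals implied by the FPKM steps lay between 21194609 and 35016388 reads per eye. akr7a3 itself was at 2.05 ± 0.541 FPKM in wild types and 0.348 ± 0.0621 FPKM in mutants (SD, n = 6 each), and the genotypes did not overlap. All 15 photoreceptor markers and all 6 pigment epithelium markers were at 1 FPKM or more in every eye. The summed FPKM of the photoreceptor markers ran from 23399 to 36528 in akr7a3+/+ and from 37161 to 44451 in akr7a3-/- eyes, without overlap, although 3 of the 15 genes were called higher and 4 lower. Muscle markers summed to between 684 and 1646 FPKM in akr7a3+/+ and between 616 and 814 FPKM in akr7a3-/- eyes, with 5 of 9 tested genes called lower. Red cell markers summed to between 136 and 1382 FPKM and between 864 and 1708 FPKM, with 1 of 7 genes called higher. Pigment epithelium markers summed to between 285 and 404 FPKM and between 218 and 318 FPKM, with 2 of 6 called lower. The lens sums overlapped widely (2221 to 4266 against 197 to 5283 FPKM), with a median log2 fold change of -1.13 over 8 genes, of which 0 were called. Among all genes tested, by the test given with the members, 11.5% were called. The level of the pineal marker exorh lay between 0.816 and 1.56 FPKM in akr7a3+/+ and between 0.985 and 1.56 FPKM in akr7a3-/- eyes. The part of these tissue differences in the results below was not tested. In whole eyes, fewer cells of a type and less RNA per cell cannot be told apart.

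Of the 4 period genes, per1b, per3 and per1a were lower in akr7a3-/- eyes and per2 did not pass the test. In the 3 genes that fell, the ranges of the genotypes did not overlap. Genes were tested with limma on log2(FPKM + 0.5), and a gene was called changed at a Benjamini-Hochberg adjusted p under 0.05 over all 18473 genes that reached 0.5 FPKM in at least 6 eyes. All 4 members passed that filter, per1a with 11 of 12 eyes at or above 0.5 FPKM and the others with 12. Of all tested genes 11.5% were called, 5.77% lower and 5.78% higher in akr7a3-/- eyes. The genotypes did not overlap in 6.62% of them, with the akr7a3-/- eyes lower in 3.06% and higher in 3.55%. The 3 falling members are among the 0.628% of tested genes that were called with a log2 fold change of -1 or less. The pseudocount of 0.5 FPKM pulls the fold changes of weakly expressed genes towards 0.

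**Figure D1:**
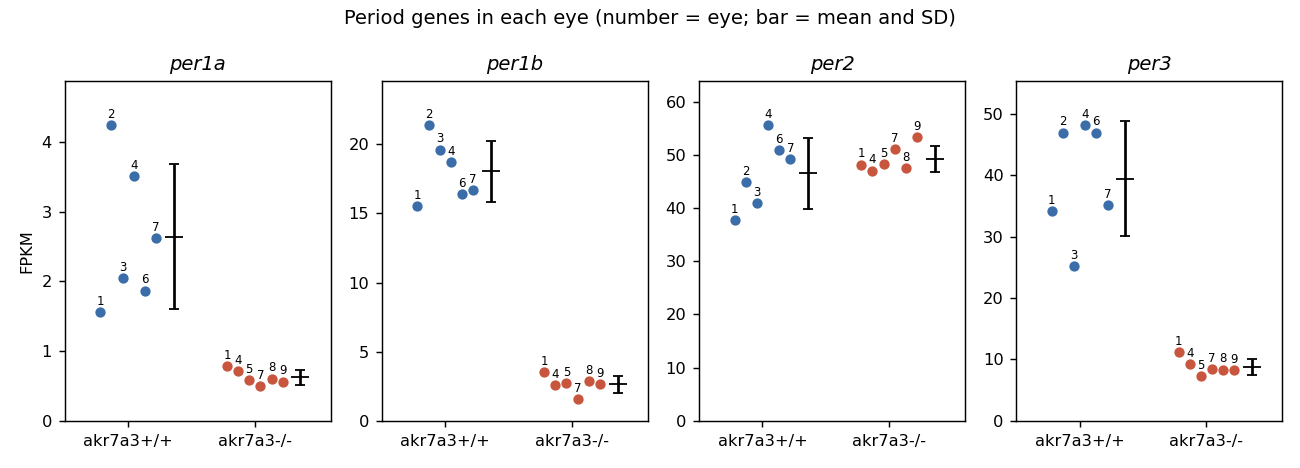
FPKM (vertical axis, from 0) of each period gene in every eye, with akr7a3+/+ eyes in blue and akr7a3-/- eyes in red; numbers name the eyes, and the black bars give the mean and SD over 6 eyes. The genotypes are separated in per1a, per1b and per3, and in per2 all akr7a3-/- eyes lie within the akr7a3+/+ range of 37.8 to 55.5 FPKM.

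per1b, one of the zebrafish copies of the vertebrate Per1 gene, had the largest change of the family. Its FPKM had a lowest value of 15.5, a median of 17.7 and a highest value of 21.4 in akr7a3+/+ eyes. In akr7a3-/- eyes the lowest was 1.57, the median 2.695 and the highest 3.51 FPKM. The highest akr7a3-/- eye (eye 1) was thus far below the lowest akr7a3+/+ eye (also eye 1). The means were 18.0 ± 2.23 and 2.66 ± 0.6246 FPKM (SD, n = 6 each), a 6.79-fold difference of means. The log2 fold change was -2.57 (standard error 0.14, 95% interval -2.87 to -2.28, adjusted p = 7.39e-07 from limma), and by its p-value per1b was number 2 among the 18473 genes tested. The read numbers behind them were 3233 to 4604 per akr7a3+/+ eye and 413 to 779 per akr7a3-/- eye.

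per3 was the second most abundant period gene in both genotypes. Its product resembles the other PER proteins, and its transcript cycles in many zebrafish tissues. The lowest, median and highest akr7a3+/+ values were 25.2, 41.0 and 48.1 FPKM. The akr7a3-/- values were 7.31, 8.37 and 11.2 FPKM. The akr7a3+/+ eyes were spread widely, with eye 3 lowest and eyes 2, 4 and 6 close together at the top, while 5 of the akr7a3-/- eyes lay between 7.31 and 9.19 FPKM and eye 1 above them. The mean was 39.4 ± 9.34 FPKM in akr7a3+/+ eyes and 8.78 ± 1.33 FPKM in the mutants (SD, n = 6 each), which is 4.49-fold. The log2 fold change was -2.08 (standard error 0.15, 95% interval -2.42 to -1.75, adjusted p = 5.64e-06 from limma). In the annotation of the assembly GRCz12tu, per3 and akr7a3 are on the same chromosome with 25 protein-coding genes starting between them, while per1a, per1b and per2 are on other chromosomes. An effect of sequence linked to the akr7a3 allele on per3 cannot be told apart from the genotype.

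per1a, the other copy of Per1, was the least abundant member. The lowest, median and highest akr7a3+/+ values were 1.56, 2.33 and 4.24 FPKM. In akr7a3-/- eyes they were 0.497, 0.596 and 0.786 FPKM. The akr7a3+/+ values were spread widely between eye 1 (lowest) and eye 2 (highest), yet the genotypes did not overlap. The means were 2.64 ± 1.04 and 0.626 ± 0.106 FPKM (SD, n = 6 each), a 4.22-fold difference of means, and the log2 fold change was -1.42 (standard error 0.19, 95% interval -1.82 to -1.02, adjusted p = 0.000368 from limma). Because per1a is low, this value moved with the pseudocount, to -1.85 with 0.1 FPKM and -1.12 with 1 FPKM, and voom on the reads gave -2.01. Each akr7a3-/- eye held 102 to 157 per1a reads, for which counting alone gives a coefficient of variation of up to 9.90%, against 16.9% between these eyes.

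per2, which light induces in zebrafish through D-box elements, was the most abundant member and did not follow the others. Its lowest, median and highest values were 37.8, 47.0 and 55.5 FPKM in akr7a3+/+ eyes. In akr7a3-/- eyes they were 47.0, 48.2 and 53.3 FPKM, all inside the akr7a3+/+ range. The means were 46.5 ± 6.61 and 49.2 ± 2.45 FPKM (SD, n = 6 each). The log2 fold change was 0.092 (standard error 0.087, adjusted p = 0.551 from limma), with a 95% interval from -0.097 to 0.28, at 4692 to 9356 reads per eye. Its interval lies above those of the other members, which reach up to -1.02 at most.

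The spread between eyes of a genotype differed from gene to gene. In akr7a3+/+ eyes the coefficient of variation was 39.4% for per1a, 23.7% for per3, 14.2% for per2 and 12.4% for per1b. In akr7a3-/- eyes it was 16.9%, 15.1%, 4.98% and 23.5% in the same order. If reads are taken as independent, counting alone gives up to 5.59% in akr7a3+/+ and 9.90% in akr7a3-/- eyes, both for per1a. Spread from library preparation was not measured. Eye 1 had the highest per1a, per1b and per3 values among akr7a3-/- eyes, although with median-of-ratios scaling its per1a (0.731 FPKM) was just under that of eye 4 (0.732 FPKM). Eye 7 had the lowest per1a and per1b values. Among akr7a3+/+ eyes, eye 2 was highest in per1a and per1b and eye 4 in per2 and per3.

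To ask whether the members changed by unequal amounts, the difference in log2(FPKM + 0.5) between the genes of each of the 6 pairs was taken within each eye and compared between the genotypes with a two-sided exact permutation test. Against per2 in the same eye, per1b stood at -1.34 ± 0.256 log2 units in wild types and -4.004 ± 0.349 in mutants (SD, n = 6 each), a difference of -2.67 (exact permutation p = 0.00216). The same comparison gave a difference of -2.17 (standard error 0.14) for per3 and -1.51 (standard error 0.18) for per1a, each with no overlap between the genotypes and the same exact permutation p = 0.00216, the smallest that 6 eyes against 6 allow (0.0026 after Benjamini-Hochberg adjustment over the 6 pairs). The difference of per1a from per2 moved with the pseudocount, to -1.94 with 0.1 FPKM and -1.21 with 1 FPKM. The Per1 copies also differed from each other. per1b minus per1a was 2.62 ± 0.351 log2 units in wild types and 1.47 ± 0.225 in mutants (SD, n = 6 each), which differ by -1.15 (exact permutation p = 0.00216). Its size moved with the pseudocount, to -0.90 with 0.1 FPKM and -1.27 with 1 FPKM, while the adjusted exact permutation p stayed under 0.05. In the remaining pairs, whether the adjusted p is under 0.05 depends on the pseudocount as well. per3 fell more than per1a by 0.66 (exact permutation p = 0.00216), but with a pseudocount of 0.1 FPKM the difference was -0.28 (adjusted exact permutation p = 0.238). per1b fell more than per3 by 0.49 (exact permutation p = 0.0173), and with a pseudocount of 1 FPKM the difference was -0.37 (adjusted exact permutation p = 0.0541).

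**Figure D2:**
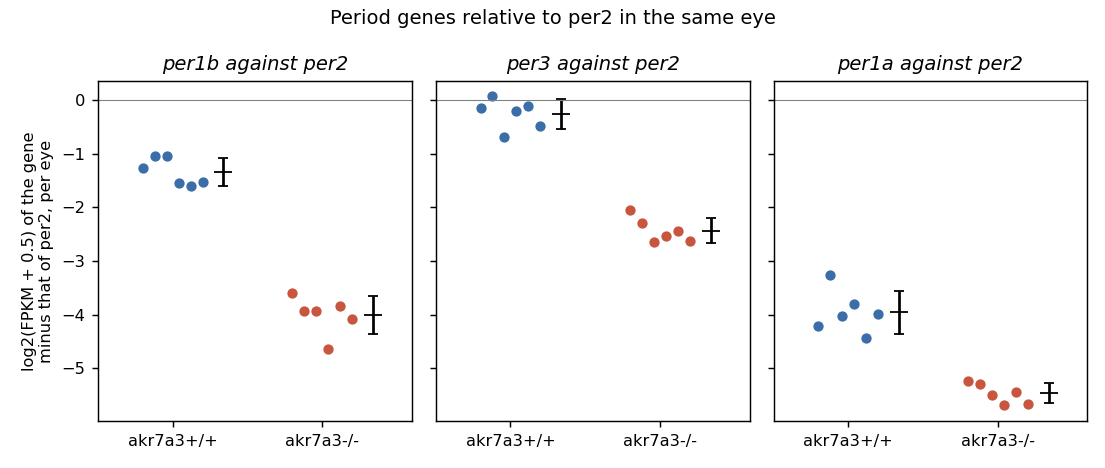
Level of per1b, per3 and per1a relative to per2 in the same eye, as a difference in log2(FPKM + 0.5) (vertical axis), for akr7a3+/+ (blue) and akr7a3-/- eyes (red) with the mean and SD over 6 eyes in black. In each panel the genotypes do not overlap, with differences between the group means of -2.67, -2.17 and -1.51.

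The order of the levels was per2, per3, per1b and per1a in both genotypes, but the gaps changed. In akr7a3+/+ eyes per2 was higher than per3 in 5 of 6 eyes, with a ratio of means of 1.18 (two-sided exact sign-flip permutation test, p = 0.0625). With only 6 eyes this p cannot show that the levels of per2 and per3 were equal. In akr7a3-/- eyes per2 was higher in 6 of 6 eyes and the ratio was 5.61 (exact permutation p = 0.0312, the smallest that 6 eyes allow). per3 exceeded per1b 2.19-fold in akr7a3+/+ and 3.31-fold in akr7a3-/- eyes, and per1b exceeded per1a 6.83-fold and 4.24-fold, each in 6 of 6 eyes (exact permutation p = 0.0312 for each of these 4 comparisons, 0.0375 after adjustment over all 6). Among all genes of the table, ranked by mean FPKM, per1b stood at percentile 86.4 in akr7a3+/+ and 47.8 in akr7a3-/- eyes. per3 stood at percentile 94.3 and 73.2, per1a at 47.5 and 29.3, and per2 at 95.1 and 95.6.

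The family summed to 107 ± 15.8 FPKM in wild types and 61.3 ± 2.47 FPKM in mutants (SD, n = 6 each). It ran from 87.7 to 126 FPKM in the first group and from 58.8 to 64.8 FPKM in the second, without overlap. per2 made up 43.8% ± 3.31 of the sum in wild types and 80.3% ± 2.74 in mutants (SD, n = 6 each). The share of per3 was 36.6% ± 4.50 and 14.3% ± 1.94, that of per1b 17.2% ± 2.96 and 4.33% ± 0.991, and that of per1a 2.44% ± 0.731 and 1.02% ± 0.172 (SD, n = 6 each). Period transcripts in akr7a3+/+ eyes were thus split mostly between per2 and per3, and in akr7a3-/- eyes they were mostly per2.

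**Figure D3:**
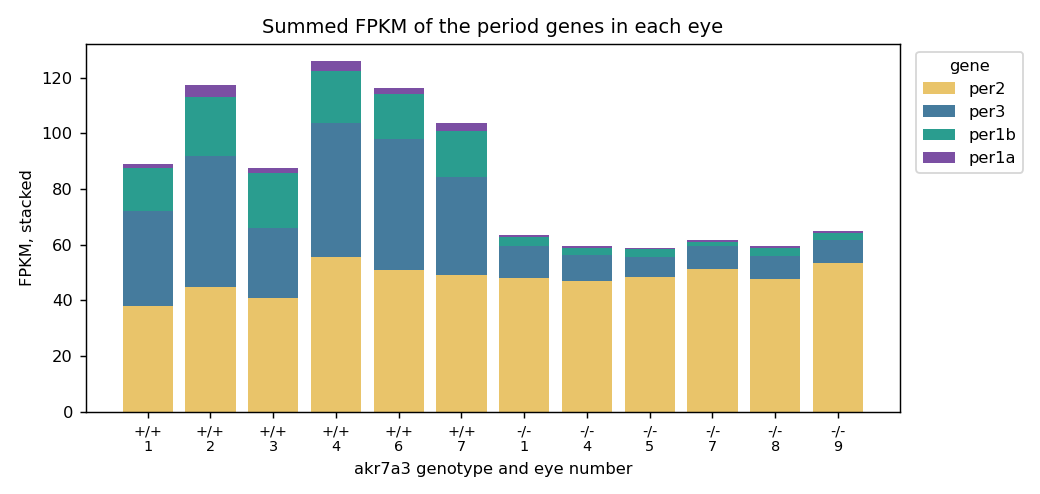
FPKM of the 4 period genes stacked for each eye (vertical axis, from 0), with akr7a3+/+ eyes on the left and akr7a3-/- eyes on the right. The per2 layer is of similar height in all 12 eyes, and the layers of per3, per1b and per1a are thin in akr7a3-/- eyes, whose sums lie between 58.8 and 64.8 FPKM.

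Other parts of the feedback loop were then described by gene lists, each read against the 11.5% of all tested genes that were called. The lists were chosen with earlier results of these data known and are described by counts and medians. The activators that drive the period genes were higher in akr7a3-/- eyes, with 6 of 6 genes called and a median log2 fold change of 0.88, beside -0.008 over all tested genes. arntl2, a bmal gene, had the largest change of these and rose from 1.1 ± 0.428 to 7.32 ± 0.366 FPKM (SD, n = 6 each; log2 fold change 2.33, adjusted p = 2.41e-06 from limma). clocka, npas2, arntl1a and arntl1b had log2 fold changes between 0.73 (arntl1a) and 1.397 (clocka). The call of clockb (0.34, adjusted p = 0.0473 from limma) was lost when 1 eye was left out in 10 of 12 cases.

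Cryptochromes bind PER proteins and repress with them, and the list of these held the 4 cry1 genes. Of them 3 were called, all higher, with a median log2 fold change of 0.63. cry2, which is not in the list and was looked up after values were seen, was called in the other direction, at 27.7 FPKM in wild types and 15.2 FPKM in mutants on average (log2 fold change -0.84, adjusted p = 3.19e-05 from limma). cry1bb rose from 68.2 ± 7.90 to 134 ± 4.49 FPKM (SD, n = 6 each; log2 fold change 0.98, adjusted p = 5.64e-06 from limma). cry1aa, which like per2 is a light-induced gene in zebrafish, did not pass (log2 fold change -0.036, 95% interval -0.17 to 0.096, adjusted p = 0.764 from limma). Among 8 genes for casein kinase 1, the F-box proteins that mark PER for breakdown and the deubiquitinase usp2, only fbxw11b was called in the fit of all 12 eyes. It was at 15.1 ± 0.692 and 17.2 ± 0.781 FPKM (SD, n = 6 each; log2 fold change 0.18, adjusted p = 0.0371 from limma), and this call too was lost in 10 of 12 such cases.

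Among 17 other genes counted as E-box outputs, 14 were called, 12 lower and 2 higher in akr7a3-/- eyes, with a median log2 fold change of -0.91. nr1d1, which encodes the repressor REV-ERB alpha, was at 28.3 ± 10.01 FPKM and at 3.87 ± 0.428 FPKM in the mutants (SD, n = 6 each; log2 fold change -2.65, adjusted p = 7.79e-06 from limma), close to the fold change of per1b. dbpa, ciarta, ciartb, bhlhe40 and bhlhe41, a D-box activator and further repressors of the clock, had log2 fold changes between -1.63 and -1.22. The genes that rose were nr1d4a (1.45) and nr1d4b (1.88), which are further rev-erb genes of fish, and the 3 not past the threshold were hlfa, hlfb and nr1d2a. In the list of ror and nfil3 genes, 3 of 9 tested genes were called, all higher. The D-box repressor gene nfil3-5 rose from 77.4 ± 37.6 to 329.6 ± 35.6 FPKM (SD, n = 6 each; log2 fold change 2.24, adjusted p = 0.000377 from limma).

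Since per2 is light-induced, other genes that light induces in zebrafish cells were counted as well. The list held 8 genes, of which 7 passed the filter and were tested. Of these 7 genes 4 were called, all lower in akr7a3-/- eyes, with a median log2 fold change of -0.78. Of these 4, tefa and tefb are also among the 12 E-box outputs that fell, so the lists are not separate counts. cry-dash, which encodes a photolyase-like protein, had the largest change and went from 4.64 ± 0.994 to 1.59 ± 0.417 FPKM (SD, n = 6 each; log2 fold change -1.30, adjusted p = 0.000296 from limma). The DNA repair gene ddb2 and the D-box activators tefa and tefb were also lower, with log2 fold changes of -1.08, -0.78 and -0.95. The repair genes xpc (-0.038) and neil1 (-0.55) did not pass, with adjusted p-values of 0.822 and 0.0594 from limma. per2 and cry1aa, both not past the threshold, differ in call from the 4 light-induced genes that fell, but the difference between these genes was not tested.

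**Figure D4:**
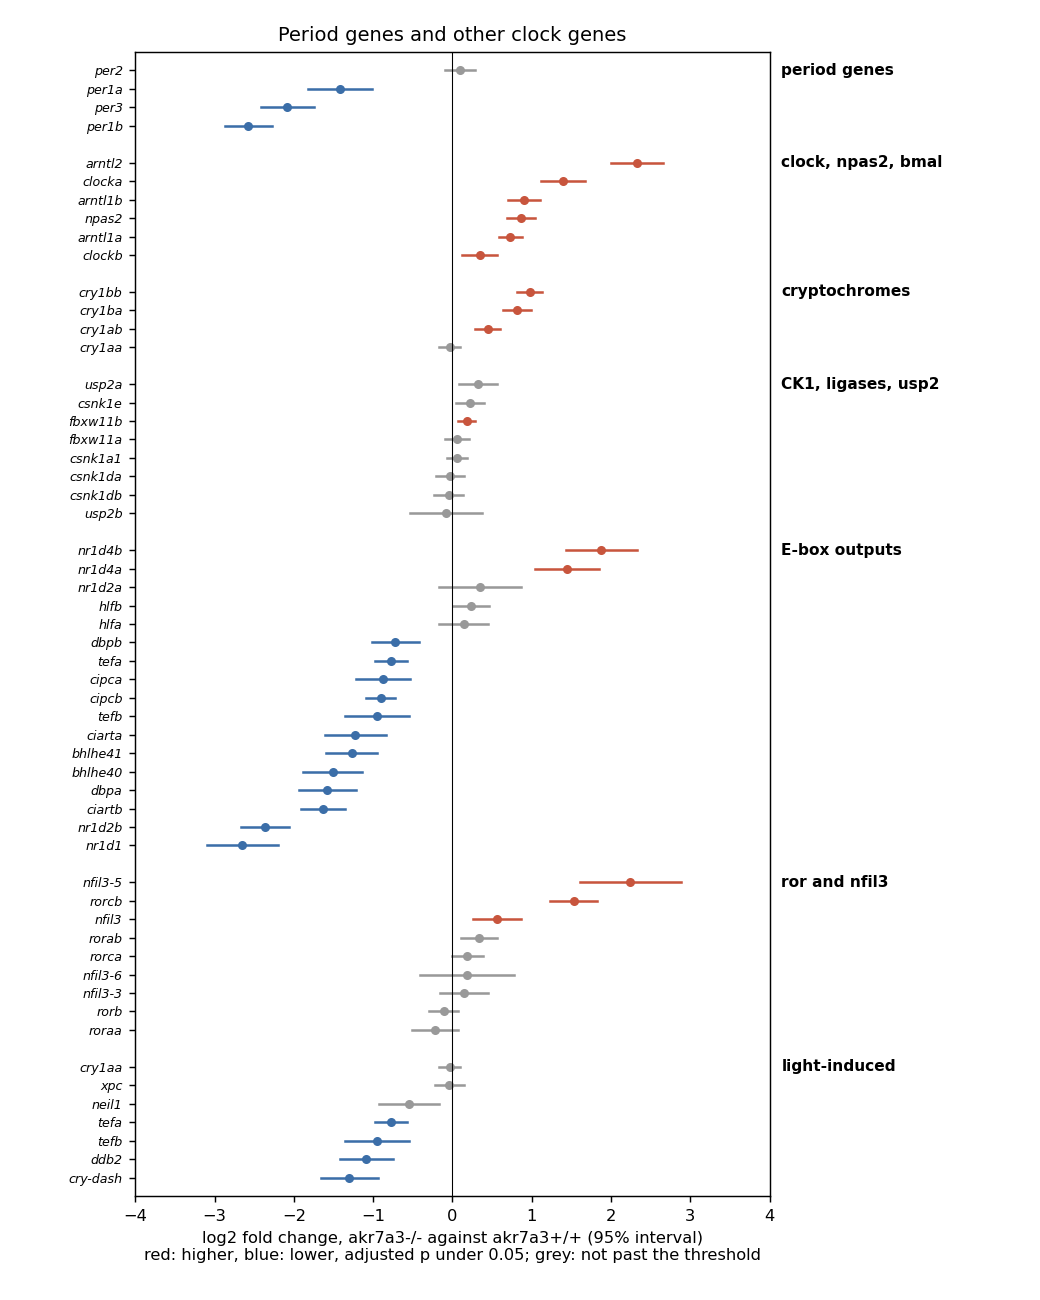
Log2 fold change of akr7a3-/- against akr7a3+/+ eyes (horizontal axis) with its 95% interval from limma for each tested gene of the period family and 6 clock lists; red and blue mark genes called higher and lower, grey marks genes not past the threshold. per1b, per3 and per1a lie at -2.57, -2.08 and -1.42 beside falling E-box outputs, all 6 activator genes lie above 0, and the interval of per2 spans 0.

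The genes whose profiles over the 12 eyes were nearest to each falling member were sought among the 16840 tested genes that averaged 1 FPKM or more. Nearness was the root mean square difference of log2(FPKM + 0.5) after each gene's akr7a3+/+ mean was taken off. It is a description of likeness in these eyes, and it favours genes with a fall of the same size. For per1b the nearest genes were si:ch211-132b12.7 at 0.257, nr1d2b at 0.308 and nr1d1 at 0.341 log2 units. For per3 they were nr1d2b at 0.268, the cone arrestin gene arr3a at 0.293 and si:ch211-132b12.7 at 0.367. For per1a they were hsf2, a heat shock transcription factor gene, at 0.211, dbpa at 0.214 and bhlhe41 at 0.266. The pseudocount lessens the fall of per1a, whose means differed 4.22-fold against 2.495-fold for hsf2, 3.20-fold for dbpa and 2.51-fold for bhlhe41. Nearness with other pseudocounts was not computed. nr1d2b, a rev-erb gene, fell from 129 ± 24.0 to 24.7 ± 5.17 FPKM, and arr3a, which is made in cone photoreceptors, from 1480 ± 173 to 339.7 ± 75.8 FPKM (SD, n = 6 each). hsf2 was at 14.9 ± 3.01 FPKM in wild types and 5.97 ± 1.21 FPKM in mutants (SD, n = 6 each; log2 fold change -1.25, adjusted p = 0.000155 from limma).

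**Figure D5:**
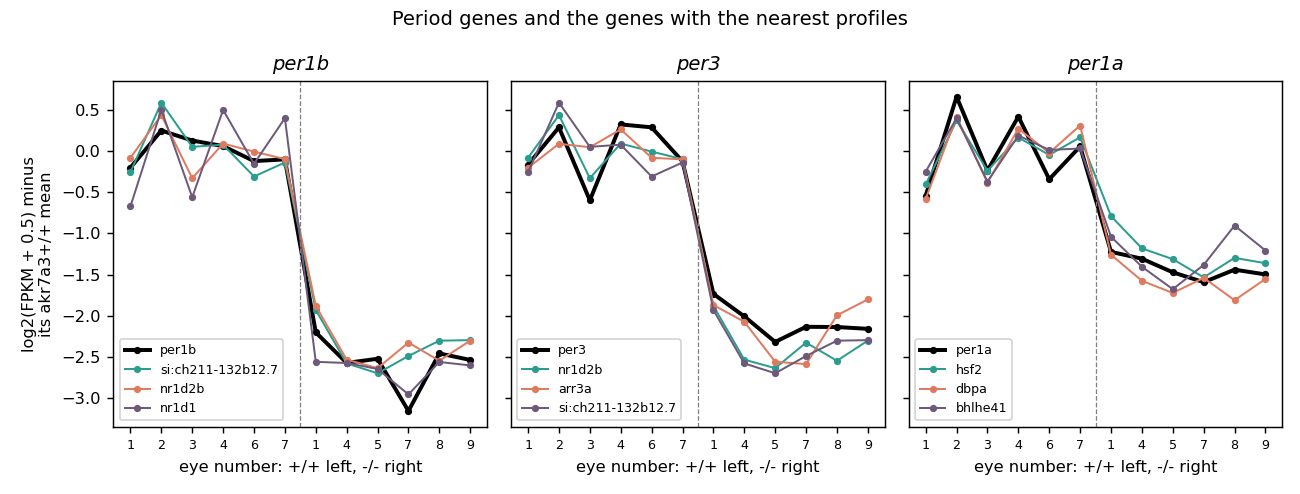
Profiles over the 12 eyes of per1b, per3 and per1a (thick black lines) and of the 3 genes nearest to each (thin lines), as log2(FPKM + 0.5) minus the gene's akr7a3+/+ mean (vertical axis), with akr7a3+/+ eyes left of the dashed line and akr7a3-/- eyes right of it. With this pseudocount, which lessens the fall of per1a, the 3 genes nearest to per1a lie within 0.266 log2 units of it by root mean square difference.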

How the data were processed

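Gene expression was measured by RNA sequencing of polyadenylated RNA in 12 adult zebrafish eyes, with strand-specific DNBSEQ libraries. The authors mapped reads to GRCz11 with HISAT2, counted them with featureCounts 2.0.3 and deposited FPKM per gene and eye. Which annotation was used, and how strand and multi-mapping reads were handled, is not given in the sources used here, so reads of near-identical stretches of period gene copies are uncertain. Whole reads (within 0.02 of a whole number) were worked out from the FPKM steps for 25432 of 25432 genes. Gene lengths were worked out in the same step, except for 751 genes at 0 in every eye, whose reads were set to 0. The length taken was the smallest that gave whole reads in every eye. For genes with reads in few eyes such a length is easily found, so the count does not show that their reads are right.

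Values were fitted on log2(FPKM + 0.5) by limma 3.58.1 (R 4.3.3, variance trend, genotype alone) over the 18473 genes that reached 0.5 FPKM in 6 or more eyes, with Benjamini-Hochberg adjustment and a threshold of 0.05. Single values were compared with exact permutation tests in Python 3.11.15. P-values from limma set the genotype difference against the spread between eyes, and exact permutation p-values count reassignments of eyes or of signs. No source says whether eyes came from separate fish. The scripts were tested on simulated data.

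The members and lists were chosen with earlier results of these data known. Genes named are the period genes, akr7a3, the called gene with the largest change in each clock list, and the 3 nearest profiles of each member whose log2 fold change was 1 or more in size. Other list members and markers were named after their values were seen. Chromosomes came from RefSeq on GRCz12tu, which is not the authors' build. They served only to tell which genes share a chromosome and to count the protein-coding genes that start between per3 and akr7a3. No sequences were analysed here. Alternatives were other pseudocounts, filters and scaling, voom on the reads, leaving out each eye, and a block on shared replicate numbers.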

Additional observations from a re-analysis of the deposited data

Results flagged for a closer look

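Of 34 sets of 6 eyes examined (17 named genes in each genotype), 3 held an eye that stood apart from the others of its group by Dixon's criterion, and 0 of the 3 concern a period gene. Chance alone flags about 5% of such sets. nr1d1 was at 3.02 FPKM in the akr7a3-/- eye 7, below the other eyes of that group, and the same eye had the lowest per1b value (1.57 FPKM). fbxw11b was at 18.7 FPKM in the akr7a3-/- eye 7, above the others. si:ch211-132b12.7 was at 33.0 FPKM in the akr7a3+/+ eye 2, the eye that was also highest in per1a and per1b.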

How the results depend on the processing

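The calls of per1b, per3 and per1a and the absence of a call for per2 were kept with other pseudocounts, no filter, median-of-ratios scaling and voom on the reads, and with each eye left out in turn, where the log2 fold changes stayed within -2.65 to -2.46, -2.20 to -2.02, -1.53 to -1.29 and 0.035 to 0.14, in that order with per2 last. A filter of 1 FPKM in all 12 eyes removed per1a and gave no value for it. The genotypes share the replicate numbers 1, 4 and 7, which no source says are pairs, and the deviations of same-numbered eyes correlated at 0.0849, -0.2 and 0.0691. With a replicate block on these 6 eyes the log2 fold changes of per1b, per3 and per1a were -2.56, -1.97 and -1.35 (adjusted p = 0.0871, 0.0871 and 0.17 from limma), 0 period genes and 0 genes of each clock list were called, and 1 gene was called over the whole table. The same 6 eyes without the block, a setting added after seeing the data, gave 126 calls. There per1b (-2.56) and per3 (-1.97) kept their calls (adjusted p = 0.0136 and 0.0104 from limma). per1a did not (-1.35, adjusted p = 0.0862 from limma). This setting gave 5 calls among activators, 2 among cryptochromes and 7 among E-box outputs. It gave 2 among ror and nfil3 genes, 1 among light-induced genes and 0 among kinases and ligases. The blocked fit has fewer eyes and fewer degrees of freedom. The count of kinases and ligases was 2 with median-of-ratios scaling and 0 to 1 with each eye left out. That of light-induced genes was 5 of 8 with no filter and 4 to 5 with each eye left out. Among all tested genes, 2133 were called, and 1518 to 2029 with each eye left out. The pair differences that missed the threshold were those of per3 minus per1a with a pseudocount of 0.1 (-0.28) and of per1b minus per3 with a pseudocount of 1 (-0.37). Depth limits per1a most, with down to 102 reads in an eye.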

Other observations

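The akr7a3+/+ eyes were not uniform in clock genes. Eyes 1, 3 and 6 had per1a values of 1.56, 2.05 and 1.87 FPKM, below the 4.24, 3.51 and 2.62 FPKM of eyes 2, 4 and 7. The same 3 eyes had the highest akr7a3+/+ values of arntl2, at 1.67, 1.38 and 1.37 FPKM against 0.704, 0.678 and 0.788 FPKM, and of nfil3-5, at 103, 114 and 115 FPKM against 36.1, 36.2 and 60.4 FPKM. They had the lowest values of nr1d1, at 16.6, 18.0 and 24.0 FPKM against 38.0, 38.0 and 35.4 FPKM, and of dbpa, hsf2 and bhlhe41. per1b, per2 and per3 did not order the akr7a3+/+ eyes in this way, since eye 3 was above eye 4 in per1b, eye 6 above eye 2 in per2 and eye 6 above eye 7 in per3. Other named genes did not either, among them nr1d2b, cry-dash and arr3a. Eyes 1 and 6 were above eye 7 in nr1d2b, and eye 3 was above eye 7 in arr3a. In cry-dash eye 3 was highest and eye 6 lowest. cry1bb did split the eyes in FPKM, with eyes 1, 3 and 6 highest. These eyes were singled out after their values were seen, no label sets them apart, and no test was made.

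Among akr7a3-/- eyes, eye 1 was highest in per1b, per3, nr1d2b, hsf2 and dbpa and lowest in arntl2 and nfil3-5, with 6.76 FPKM of arntl2 against 7.003 to 7.68 FPKM in the other eyes. These ranks were the same with median-of-ratios scaling. In per1a, nr1d1 and cry1bb eye 1 was also highest in FPKM, but with this scaling it ranked 2, 5 and 6 from the highest among the 6 akr7a3-/- eyes.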
